A study of Mus musculus with 6 samples.

Results

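Accessibility at 9 genes of the muscle sarcomere's scaffold was compared between myonuclei treated with Yap-shRNA and with LacZ-shRNA. The genes are Ttn, Neb, Actn2, Actn3, Mybpc1, Mybpc2, Myom1, Myom2 and Myom3, chosen by symbol among windows that span the transcription start sites (TSS) of genes, of which they are 9 of 49366 windows. All 9 were present, with mean counts from 368 (Mybpc1) to 3723 (Ttn). None of the 9 windows, and none of the 49 peaks in or near these genes, passed an adjusted p of 0.05 in edgeR, while 16 of the 49 peaks had an unadjusted p under 0.05 (32.7%, against 8.90% of all peaks). That count fell to as few as 7 with 1 sample left out (14.3%, against 6.18% of all peaks). Without LacZ-shRNA replicate 3 it was 8 (16.3%, against 13.8%). Of all peaks with a mean count of at least 174, the median of the 49, 12.0% had such a p with all samples. Of the 16, most of those with higher values lay in Neb and most of those with lower values in the myomesin and Mybpc1 genes. This split is that of the fit with all samples, in which 7 were higher and 9 lower. Without Yap-shRNA replicate 3, 2 peaks over all genes were higher and 5 lower at that p. Without LacZ-shRNA replicate 3, 6 were higher and 2 lower, and with scaling by library size alone 9 and 1.

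ATAC-seq, in which a transposase inserts adapters into open DNA, was run on nuclei sorted for PCM1, a protein at the surface of muscle fibre nuclei. Male C57BL/6J mice aged 8 weeks received an AAV6 vector with a short hairpin RNA (shRNA) against Yap in one limb's muscles and an AAV6 vector with an shRNA against lacZ, a bacterial gene, in the opposite limb, and tissue was taken at day 28. Each of the 3 Yap-shRNA and 3 LacZ-shRNA replicates pooled 4 gastrocnemius and 4 tibialis anterior (TA) muscles, so differences between single animals or between these muscles cannot be read from the data. A hairpin acts on RNA, so the Yap1 window (log2 fold change 0.04, SE 0.18) does not show how far Yap was reduced.

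The sarcomere is the contractile unit of the myofibre, bounded by Z-discs that anchor the actin filaments, with the myosin filaments held together at the M-band in its middle. Titin, a giant elastic protein, runs from Z-disc to M-band, and nebulin runs along the actin filament and helps to set its length. Alpha-actinins cross-link actin at the Z-disc, myosin-binding proteins C lie on the myosin filament, and myomesins link myosin filaments at the M-band. Actn3, Mybpc2 and Myom2 are the forms typical of fast fibres, Mybpc1 is the slow form of myosin-binding protein C and is also made in fast fibres, and Actn2 is made in all fibre types.

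The promoter sequences of 4 members are shown for their place among the peaks below, and no result rests on their motifs. The Ttn promoter lies in a peak whose fold change differed in sign from that of the whole Ttn window, Mybpc1 and Mybpc2 are a slow and fast pair with very unlike peaks, and the Myom1 promoter in the reference is an internal one. Each is the 250 bases before a RefSeq start in build GRCm38.p6, printed 5′ to 3′ on the strand of the gene, with matches to muscle motifs in capitals.
Ttn, minus strand, chr2:76982548-76982797: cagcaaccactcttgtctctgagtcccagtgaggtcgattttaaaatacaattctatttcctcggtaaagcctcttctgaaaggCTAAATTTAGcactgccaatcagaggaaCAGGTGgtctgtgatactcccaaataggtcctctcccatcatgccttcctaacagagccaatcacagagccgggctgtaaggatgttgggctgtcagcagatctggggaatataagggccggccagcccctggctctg
Mybpc1, minus strand, chr10:88605153-88605402: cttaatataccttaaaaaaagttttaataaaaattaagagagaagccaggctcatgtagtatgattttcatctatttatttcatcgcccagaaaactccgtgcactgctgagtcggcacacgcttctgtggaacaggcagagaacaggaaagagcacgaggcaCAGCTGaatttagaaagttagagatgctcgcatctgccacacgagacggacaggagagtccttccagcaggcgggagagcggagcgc
Mybpc2, minus strand, chr7:44524670-44524919: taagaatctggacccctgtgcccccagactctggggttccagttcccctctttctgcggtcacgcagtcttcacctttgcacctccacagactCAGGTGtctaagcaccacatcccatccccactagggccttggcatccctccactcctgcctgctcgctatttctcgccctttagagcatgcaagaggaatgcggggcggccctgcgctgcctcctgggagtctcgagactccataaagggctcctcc
Myom1, plus strand, chr17:71019307-71019556: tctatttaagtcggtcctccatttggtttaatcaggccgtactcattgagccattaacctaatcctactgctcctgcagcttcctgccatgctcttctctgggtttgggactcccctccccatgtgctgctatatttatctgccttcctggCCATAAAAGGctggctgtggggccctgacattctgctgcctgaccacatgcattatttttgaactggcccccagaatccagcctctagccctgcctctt

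In these promoters the capitals mark a MEF2 motif and the E-box CAGGTG in Ttn, the E-box CAGCTG in Mybpc1, the E-box CAGGTG in Mybpc2 and an SRF CArG box in Myom1. MEF2, the myogenic E-box factors and SRF are transcription factors of muscle genes. Both strands were searched, also for the TEAD motif ACATTCC and the MEF3 motif TCAGGTT. Of 32841 promoters of this length, 0.509% held the MEF2 motif, 1.47% the CArG box, 13.0% CAGCTG, 17.2% CAGGTG, 3.25% ACATTCC and 3.49% TCAGGTT. RefSeq promoters were matched for 6 of the 9 members, and the other two, Actn2 and Myom3, held 1 MEF3 and 1 CAGGTG match respectively. These letters are a description of the sequences and were not tested as binding sites. All 250 bases of the Ttn promoter and 231 of the Mybpc1 promoter lay in a peak at the gene's 5′ end. All 250 bases of the Myom1 promoter lay in a peak too, but 16.9 kb into the gene as annotated by GENCODE, and the Mybpc2 promoter lay in no listed peak.

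Window counts totalled 3326803 to 10319467 per sample and peak counts 2588520 to 6871176, with LacZ-shRNA replicates 2 and 1 the shallowest in both tables, so the control values carry more counting error. LacZ-shRNA replicate 1 also stood apart in background: 39.7% of its window counts lay in windows without a peak, against 34.3% and 35.0% in the other controls and 36.3% to 38.0% in the Yap-shRNA replicates. The tissue label was checked on marker genes. Muscle fibre marker windows had a median of 24.6 CPM per kb (CPM being counts scaled to the size of the library), and 8 of 10 lay above the upper quartile of windows without a peak, the exceptions being the fast myosins Myh1 and Myh2. Medians of the fibroblast, endothelial, leukocyte, satellite cell, smooth muscle and cardiomyocyte lists were between 3.63 and 7.17 CPM per kb. In the order of these lists, 1 of 6, 3 of 5, 3 of 6, 3 of 4, 1 of 3 and 4 of 4 markers lay above the same quartile. A place above this quartile therefore does not tell muscle fibre from cardiomyocyte markers. No marker was at 0, but the deposited windows hold only rows with a mean count of at least 10. The series' design text speaks of cardiomyocytes, whereas all sample labels give skeletal muscle. Fewer nuclei of a kind and less accessibility per nucleus cannot be told apart in such pooled libraries.

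A window reaches 1 kb up and down from all annotated starts of a gene's transcripts, so its length depends on the gene, from 4.00 kb for Actn3 and Mybpc2 to 27.3 kb in 13 segments for Ttn. Levels between genes are therefore given as CPM per kb. Mybpc2, the fast myosin-binding protein C on chromosome 7, had the highest level. Its 3 LacZ-shRNA replicates held 29.8, 47.6 and 40.2 CPM per kb and its Yap-shRNA replicates 35.4, 29.9 and 32.2, for a mean over all samples of 35.9. That is 8.35 times the median of 4.29 in the 31605 windows that hold no peak and overlap no other gene's window. Actn3, the fast alpha-actinin, followed at 19.6, Ttn at 17.8, Myom2 at 14.8, Actn2 at 13.0, Neb at 12.1 and Myom3 at 10.9 CPM per kb. Myom1 (7.69) and Mybpc1 (6.01) were lowest, and all 9 means lay above the upper quartile of 5.53 in windows without a peak. So did the means of 16471 of all 49366 windows. Mybpc1 was under that quartile in LacZ-shRNA replicate 1 (5.195) and in Yap-shRNA replicates 2 (5.518) and 3 (5.212).

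In the order of levels, only some neighbours differed beyond their spread over samples. Mybpc2 was above Actn3 in 6 of 6 samples, by 0.87 on the log2 scale (SD 0.12), and Myom2 was above Actn2 in 6 of 6, by 0.19 (SD 0.12). The steps from Myom3 to Myom1 (0.50, SD 0.22) and from Myom1 to Mybpc1 (0.36, SD 0.17) also held in all 6 samples. Actn3 and Ttn, Ttn and Myom2, Actn2 and Neb, and Neb and Myom3 changed places in at least 1 sample, so their order is not settled. Windows of Actn3, Neb and Myom1 overlap the windows of Zdhhc24, Gm13522, and Myl12a with Myl12b, and their counts are uncertain for that reason. The Actn3 window held a mean count of 594.2, against 1054.5 in its promoter peak, and the Myom1 peaks also held more counts than their window. The levels of Actn3 and Myom1 may thus be too low. The steps from Mybpc2 to Actn3 and from Myom3 to Myom1 are therefore not settled either.

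**Figure D1:**
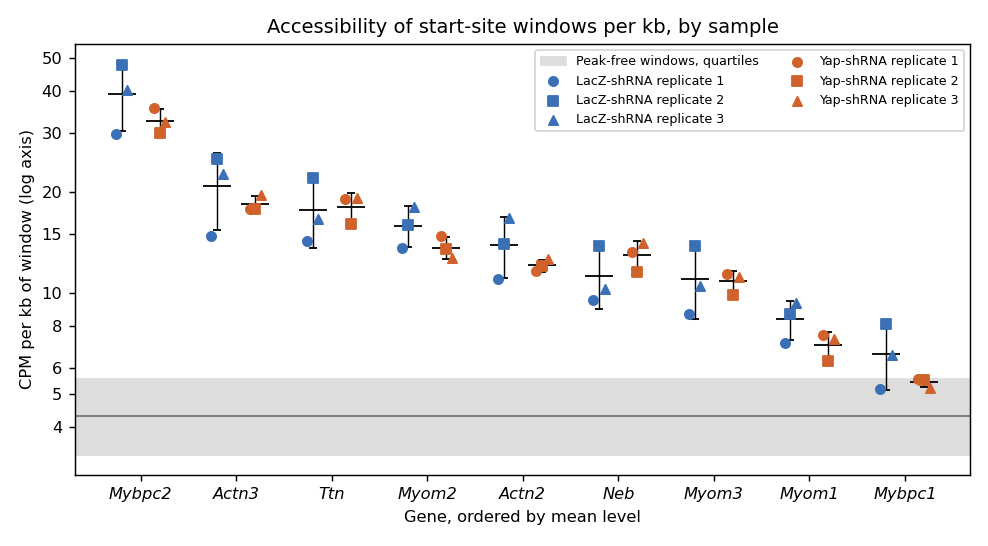
CPM per kb of window (log axis) for the 9 genes, ordered by mean, with a point for each of the 3 LacZ-shRNA and 3 Yap-shRNA replicates. Black lines show group means with SD, the grey band the quartiles (3.29 to 5.53) of windows without a peak. Mybpc2 lies highest in every sample, and LacZ-shRNA replicate 1 is the lowest control for each gene. The windows of Actn3, Neb and Myom1 overlap those of other genes.

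Much of the signal at the longest genes lay outside listed peaks. In the Ttn window, 85.9% of counts fell outside the peak at its 5′ end. The remaining 25.3 kb held 12.7, 21.1 and 14.6 CPM per kb in the LacZ-shRNA replicates and 17.6, 14.9 and 18.6 in the Yap-shRNA replicates, a mean of 16.6, or 3.87 times the level of windows without a peak. On average these stretches around Ttn starts lay above that level in all 6 samples. The same share was 77.9% for Neb, 69.7% for Myom2 and 83.3% for Mybpc1, at 2.48, 2.82 and 1.26 times the level of windows without a peak. These are lower bounds, since a peak that reaches past its window takes away counts the window never held. For Myom1 and Actn3, where the peaks held more counts than the window, no such value could be had. For Actn2 and Myom3 the lower bounds were 0.751 and 0.976 times that level. They do not show that these stretches were at background. At Myom3, 5.467 of 6.003 kb lay outside peaks. All counts of its promoter peaks, 833 and 1421 bases wide, were taken away all the same.

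Mybpc2 had no listed peak in the gene or within 10 kb of it, although its window ranked at the 99.8 percentile of all windows per kb. Of 39022 windows that overlap no other, 69 were at or above the level of Mybpc2, and 19 of these (27.5%) held no peak, against 81.0% of all such windows. Its partner Mybpc1, at 6.01 CPM per kb, had 6 peaks. The Neb start at the 5′ end of the gene also lay in no peak, and the 2 promoter peaks of Neb were at internal starts. At Myom3 the start at the 5′ end lay in no peak either, with the nearest peak 910 bases away.

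Each window was then compared between the groups. Across all windows, 11 (0.0223%) passed an adjusted p of 0.05 in edgeR's quasi-likelihood test, and 4.90% had an unadjusted p under 0.05. Of the 9 scaffold windows, 0 passed either threshold, and in 0 of 9 were the groups without overlap, against 5.31% of all windows with every Yap-shRNA sample higher and 4.79% with every one lower. DESeq2 and limma voom also called 0 of 9. The log2 fold change of Yap-shRNA against LacZ-shRNA was under 0 for 7 of 9, against 52.7% of all windows, with a median of −0.21, against −0.01 over all windows. Beside this, the summed CPM of the 10 muscle fibre markers ran from 1039 to 1430 in the controls and from 1100 to 1238 with Yap-shRNA, of the 6 fibroblast markers from 164 to 175 and from 172 to 215, of the 6 leukocyte markers from 116 to 130 and from 129 to 139, and of the 5 endothelial markers from 103 to 111 and from 95.8 to 106. The fibroblast list was split, with 3 markers higher and 3 lower, as was the endothelial list, with 2 higher and 3 lower. Of the leukocyte markers 5 were higher and 1 lower, and of the muscle fibre markers 2 were higher and 8 lower. In these 4 lists 0 markers passed the adjusted threshold in edgeR. At an unadjusted p under 0.05, 2 fibroblast and 1 leukocyte marker were higher and 2 endothelial markers lower, and their part in the values was not tested.

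Ttn (ENSMUSG00000051747, chr2:76703980-76982547, minus strand) held 390, 601 and 454 CPM in controls, that is, LacZ-shRNA replicates 1 to 3, and 519, 438 and 525 CPM with Yap-shRNA. The control values enclosed all Yap-shRNA values. The log2 fold change was 0.04 (SE 0.17, 95% interval −0.30 to 0.38, adjusted p in edgeR = 0.99). Neb (ENSMUSG00000026950, chr2:52136647-52378474, minus strand), the nebulin gene, held 202, 292 and 218 CPM in the controls and 282, 245 and 299 CPM with Yap-shRNA. Only LacZ-shRNA replicate 2 reached into the range of the Yap-shRNA samples. Its log2 fold change of 0.22 (SE 0.15, interval −0.09 to 0.53, adjusted p in edgeR = 0.949) was the highest of the 9.

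The alpha-actinins of the Z-disc had lower means with Yap-shRNA, within the spread of the controls. Actn2 (ENSMUSG00000052374, chr13:12269426-12340760, minus strand) held 66.6, 84.6 and 101 CPM in the controls and 70.1, 72.5 and 76.0 CPM with Yap-shRNA. Actn3 (ENSMUSG00000006457, chr19:4861216-4877909, minus strand) held 59.2, 100.3 and 90.1 CPM against 71.1, 71.0 and 78.1 CPM. For both genes LacZ-shRNA replicate 1 lay below all Yap-shRNA samples and the other controls lay above them. The log2 fold changes were −0.21 (SE 0.14) for Actn2 and −0.17 (SE 0.15) for Actn3, with edgeR adjusted p of 0.949 and 0.951.

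The myosin-binding proteins C gave almost equal values for the slow and the fast form. Mybpc1 (ENSMUSG00000020061, chr10:88518279-88605152, minus strand) held 42.5, 66.0 and 53.4 CPM in the controls and 45.5, 45.2 and 42.7 CPM with Yap-shRNA. Mybpc2 (ENSMUSG00000038670, chr7:44501699-44524656, minus strand) held 119, 190 and 161 CPM in the controls and 142, 120 and 129 CPM with Yap-shRNA. Again LacZ-shRNA replicate 1 was under every Yap-shRNA value and the other two controls were over them. Both log2 fold changes were −0.26 (SE 0.14 and 0.15, adjusted p in edgeR = 0.946).

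Among the myomesins, Myom1 (ENSMUSG00000024049, chr17:71002633-71126856, plus strand), the general form, held 77.3, 94.2 and 101 CPM in the controls and 81.2, 68.1 and 79.4 CPM with Yap-shRNA. Myom2 (ENSMUSG00000031461, chr8:15057653-15133541, plus strand), also named M-protein, held 116, 137 and 154 CPM in the controls and 126, 115 and 108 CPM with Yap-shRNA. In both genes LacZ-shRNA replicates 2 and 3 lay above all Yap-shRNA samples and LacZ-shRNA replicate 1 lay among them. The log2 fold changes were −0.26 (SE 0.14) for Myom1 and −0.22 (SE 0.14) for Myom2, each with an edgeR adjusted p of 0.946. Myom3 (ENSMUSG00000037139, chr4:135759715-135815564, plus strand) held 51.9, 83.0 and 62.8 CPM in the controls and 68.5, 59.3 and 67.1 CPM with Yap-shRNA. Its controls enclosed all Yap-shRNA values, as for Ttn, and its log2 fold change was −0.001 (SE 0.15, adjusted p in edgeR = 1).

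**Figure D2:**
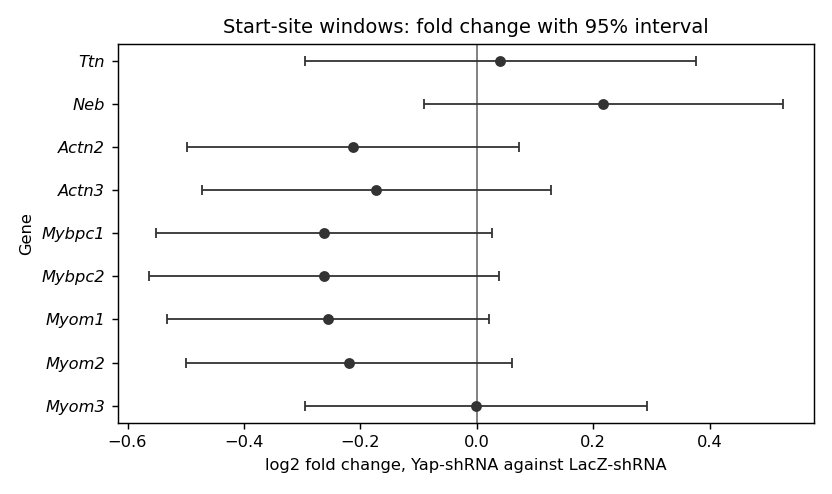
Log2 fold change of the 9 windows, Yap-shRNA against LacZ-shRNA (points), with the 95% interval of edgeR's fit (bars). All 9 intervals cross 0, from −0.56 at the lower end for Mybpc2 to 0.53 at the upper end for Neb.

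LacZ-shRNA replicate 1 was the lowest control for 9 of 9 genes, with replicate 2 the highest for 6 and replicate 3 for 3. With replicate 1 left out, 8 of 9 windows were lower with Yap-shRNA, the median log2 fold change was −0.37, and Actn2, Actn3, Mybpc1, Mybpc2, Myom1 and Myom2 had an unadjusted p under 0.05, as had 6.91% of all windows in that fit. Mybpc2 then passed the threshold, at −0.42 (adjusted p in edgeR = 0.0191, against a range up to 1 over the alternatives), and the windows called over all genes went from 11 to 157. With LacZ-shRNA replicate 3 left out the median was −0.10, and with LacZ-shRNA replicate 2 left out it was −0.11. LacZ-shRNA replicate 1 had the highest share of counts in windows without a peak, and the part of this background in the values was not tested.

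**Figure D3:**
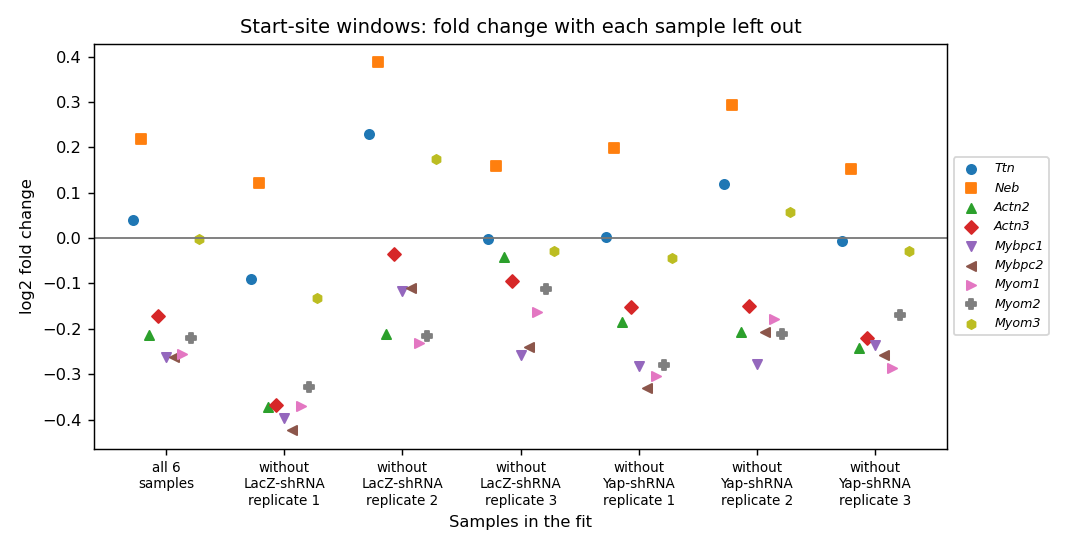
Log2 fold change of each of the 9 windows in the fit of all 6 samples and with each sample left out in turn. Neb stays above 0 throughout (0.12 to 0.39), Ttn and Myom3 fall on either side of 0, and the other 6 genes stay below 0, lowest without LacZ-shRNA replicate 1.

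Windows of the 9 genes did not all follow each other from sample to sample, which is given as a description over 6 samples whose libraries they share. Pearson r of log2 CPM was 0.90 for Ttn and Neb and 0.98 for Ttn and Myom3. Myom3 had an r of 0.82 with each of Neb, Actn3 and Mybpc2. Neb and Myom2 had the lowest r of all pairs, −0.21. Mybpc1 and Mybpc2 had an r of 0.95. Among 3110 windows at least as high as the lowest member, the windows most like the mean of the 9 were Atp2a1 (r = 0.995), the fast calcium pump, Cry1 (0.991), a circadian clock gene, Fbrs (0.991), Pip5k1a (0.988), a lipid kinase, and Wdr18 (0.987). As many as 217 of the windows searched had an r over 0.9, so this likeness is not particular to these 5.

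Ratios of isoforms within a sample do not depend on the scaling of the libraries. The log2 ratio of Mybpc2 to Mybpc1 per kb was 2.52, 2.56 and 2.62 in the controls and 2.67, 2.44 and 2.63 with Yap-shRNA, and the groups differed by 0.01 (exact permutation p = 0.9, two-sided). The ratio of Actn3 to Actn2 was 0.42, 0.84 and 0.43 in the controls and 0.61, 0.56 and 0.63 with Yap-shRNA, a difference of 0.04 (exact permutation p = 1). LacZ-shRNA replicate 2 alone was high in that ratio. The Actn3 window overlaps that of Zdhhc24, so its counts and this ratio are uncertain. The ratio of Myom2 to Myom3 was 0.65, 0.21 and 0.79 in the controls and 0.37, 0.45 and 0.18 with Yap-shRNA, a difference of −0.21 (exact permutation p = 0.3, adjusted over 3 ratios 0.9). The groups overlapped in all 3 ratios, and 3 samples against 3 cannot give a p under 0.1.

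**Figure D4:**
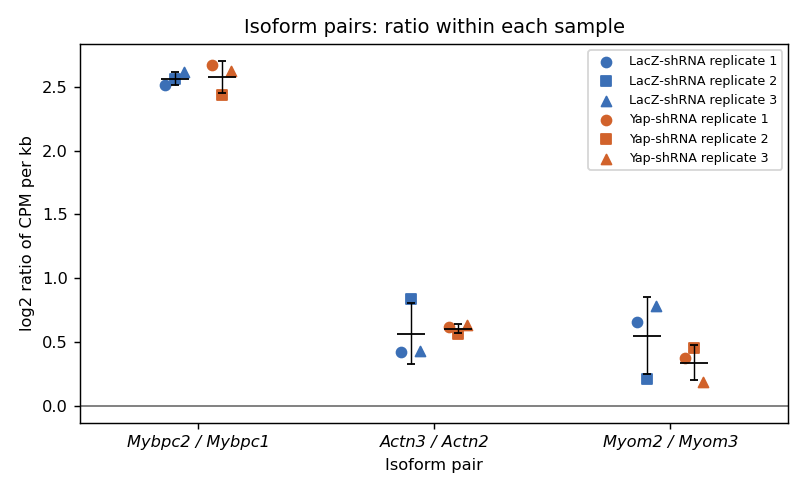
Log2 ratio of CPM per kb for 3 pairs of isoform genes, with a point for each sample and the mean and SD of each group in black. The fast Mybpc2 exceeds the slow Mybpc1 by 2.44 to 2.67 in every sample, and the groups overlap in each pair. The Actn3 window overlaps that of Zdhhc24.

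Peaks give a finer view of the long genes. In all, 49 listed peaks overlapped a member gene or lay within 10 kb of it, namely 13 within 1 kb of a transcript start (promoter peaks), 31 others in the genes (genic) and 5 beside them (flanking). Neb had 11, Myom1 9, Actn2, Mybpc1 and Myom2 6 each, Ttn 5, Myom3 4, Actn3 2 and Mybpc2 0. Over all 36097 peaks, 0.618% passed an adjusted p of 0.05 in edgeR's test, and 0 of the 49 did, nor did any with DESeq2 or limma voom. At an unadjusted p under 0.05 there were 16 of 49 (32.7%), against 8.90% of all peaks and 12.0% of the 8468 peaks with a mean count of at least 174, the median of the 49 (1.62% of these passed the adjusted threshold). Of these 16, 7 were higher and 9 lower with Yap-shRNA, against 3.59% and 5.31% of all peaks and 3.60% and 8.36% of those with such counts. The fold change was under 0 for 33 of 49, against 50.5% of all peaks, with a median of −0.13. The 16 became 7 without Yap-shRNA replicate 3 (14.3%, against 6.18% of all peaks), 8 without LacZ-shRNA replicate 3 (16.3%, against 13.8%) and 9 without Yap-shRNA replicate 2 (18.4%, against 5.71%). Scaling by library size alone left 10 (20.4%, against 13.3% of all peaks), of which 9 were higher and 1 lower. Neighbouring peaks of a gene share the same libraries and are not independent. Groups without overlap were found at 3 peaks with higher and 7 with lower values, against 6.55% and 6.76% of all peaks.

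Ttn had 2 very broad peaks. One of 4886 bases (chr2:76699074-76703959) just past the 3′ end of the gene was the highest, at 176, 220 and 204 CPM in the controls and 184, 186 and 200 CPM with Yap-shRNA. The groups overlapped, and the log2 fold change was −0.07 (SE 0.14, adjusted p in edgeR = 0.95). The other, 4742 bases long and 29.1 kb from the 5′ end, held 111, 154 and 112 CPM against 158, 143 and 166 CPM. Its log2 fold change was 0.32 (SE 0.14, edgeR unadjusted p = 0.0281, adjusted p = 0.463), with LacZ-shRNA replicate 2 among the Yap-shRNA values. A peak at 175 kb (chr2:76806774-76807905) held 55.3, 62.0 and 49.2 CPM against 45.5, 38.2 and 46.6 CPM at a log2 fold change of −0.33 (SE 0.13, adjusted p in edgeR = 0.343). In the peak at 175 kb every Yap-shRNA sample was under every control. The promoter peak of Ttn, which holds the sequence printed above, had a log2 fold change of −0.16 (SE 0.13, adjusted p in edgeR = 0.811), opposite in sign to the Ttn window, with both 95% intervals crossing 0. The peak at 29.1 kb and the promoter peak were named after their values were seen.

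At Neb, 8 of 11 peaks were higher with Yap-shRNA, with a median log2 fold change of 0.24. Its peak at an internal start 122 kb from the 5′ end (chr2:52256396-52257027) held 14.0, 14.4 and 16.2 CPM in the controls and 22.9, 20.3 and 22.2 CPM with Yap-shRNA. All 3 Yap-shRNA samples were above all controls. This was the highest log2 fold change of the 49, 0.53 (SE 0.17, adjusted p in edgeR = 0.175), and it passed the threshold only with scaling by library size alone (0.66, adjusted p = 0.047, range over the alternatives up to 0.47). A peak of 3478 bases at 107 kb (chr2:52269759-52273236), the highest of Neb, held 88.7, 110 and 91.5 CPM against 124, 105 and 130 CPM, with a log2 fold change of 0.32 (SE 0.13, adjusted p in edgeR = 0.415). Only LacZ-shRNA replicate 2 and Yap-shRNA replicate 2 crossed there. An intronic peak near the 3′ end (chr2:52144100-52145379) held 29.0, 35.7 and 30.1 CPM against 41.2, 35.2 and 44.0 CPM, with a log2 fold change of 0.36 (SE 0.14, adjusted p in edgeR = 0.331). In all, 5 of the 11 Neb peaks had an unadjusted p under 0.05 in edgeR, each of them higher with Yap-shRNA. Of all peaks, 3.59% were higher at that p. Without Yap-shRNA replicate 3, the peaks of all 9 genes that were higher at that p fell from 7 to 2.

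The alpha-actinin peaks went both ways. An intronic peak 9.00 kb into Actn2 (chr13:12331293-12332236) held 14.8, 20.8 and 15.8 CPM in the controls and 22.0, 25.4 and 21.3 CPM with Yap-shRNA. Its groups did not overlap, and the log2 fold change was 0.46 (SE 0.17, adjusted p in edgeR = 0.296). The promoter peak at the 5′ end of Actn2 (chr13:12339473-12341367), the highest of that gene, held 48.5, 52.2 and 55.5 CPM against 50.5, 48.8 and 46.8 CPM, at −0.10 (SE 0.12, adjusted p in edgeR = 0.899). A second promoter peak of Actn2, by an internal start at 56.7 kb (chr13:12283355-12284779), was at −0.30 (SE 0.13, edgeR unadjusted p = 0.0291, adjusted p = 0.468). Its groups overlapped, and it was named after its values were seen. At Actn3 the promoter peak (chr19:4875913-4879215) held 180, 219 and 234 CPM against 190, 178 and 160 CPM, at −0.26 (SE 0.14, adjusted p in edgeR = 0.628). This peak also covers the start of Zdhhc24 and cannot be given to Actn3 alone.

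At Mybpc1, 5 of 6 peaks were lower, with a median log2 fold change of −0.29. The highest of them lay in an intron 14.0 kb from the 5′ end (chr10:88590702-88591592) and held 24.9, 25.5 and 30.9 CPM in the controls and 26.1, 19.5 and 17.04 CPM with Yap-shRNA. Yap-shRNA replicate 1 lay among the controls and the other two below them. The log2 fold change was −0.40 (SE 0.16, adjusted p in edgeR = 0.382).

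The myomesin peaks were mostly lower with Yap-shRNA, in 9 of 9 at Myom1 (median log2 fold change −0.23), 5 of 6 at Myom2 (median −0.18) and 3 of 4 at Myom3 (median −0.10). The lowest value of the 49 was at a peak by an internal start of Myom3, 42.2 kb from the 5′ end (chr4:135801200-135802620), with 38.9, 51.4 and 43.3 CPM in the controls and 33.3, 29.6 and 32.8 CPM with Yap-shRNA. All Yap-shRNA samples lay under all controls. The log2 fold change was −0.47 (SE 0.13, edgeR unadjusted p = 0.000999, adjusted p = 0.0992), the smallest adjusted p among the 49 peaks. A second Myom3 peak at 13.0 kb (chr4:135771876-135773636), the highest of that gene, was at −0.17 (SE 0.13, adjusted p in edgeR = 0.786).

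At Myom1 the peak at the internal start whose promoter is printed above (chr17:71019043-71019957) held 23.8, 26.8 and 31.7 CPM in the controls and 24.0, 20.8 and 19.9 CPM with Yap-shRNA. The range of the Yap-shRNA samples reached the lowest control by a small margin. Its log2 fold change was −0.37 (SE 0.15, edgeR unadjusted p = 0.0194, adjusted p = 0.406), a peak named for its sequence and after its values were seen. The peak at the 5′ end of Myom1 (chr17:71001457-71003466), the highest of that gene, also covers starts of Myl12a and Myl12b and was at −0.02 (SE 0.13, adjusted p in edgeR = 0.993). Myom2 had its highest peak 15.4 kb into the gene (chr8:15071305-15074764), at 94.2, 93.8 and 110 CPM against 85.6, 91.9 and 83.4 CPM. Every Yap-shRNA sample was lower there, at a log2 fold change of −0.20 (SE 0.13, adjusted p in edgeR = 0.703).

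**Figure D5:**
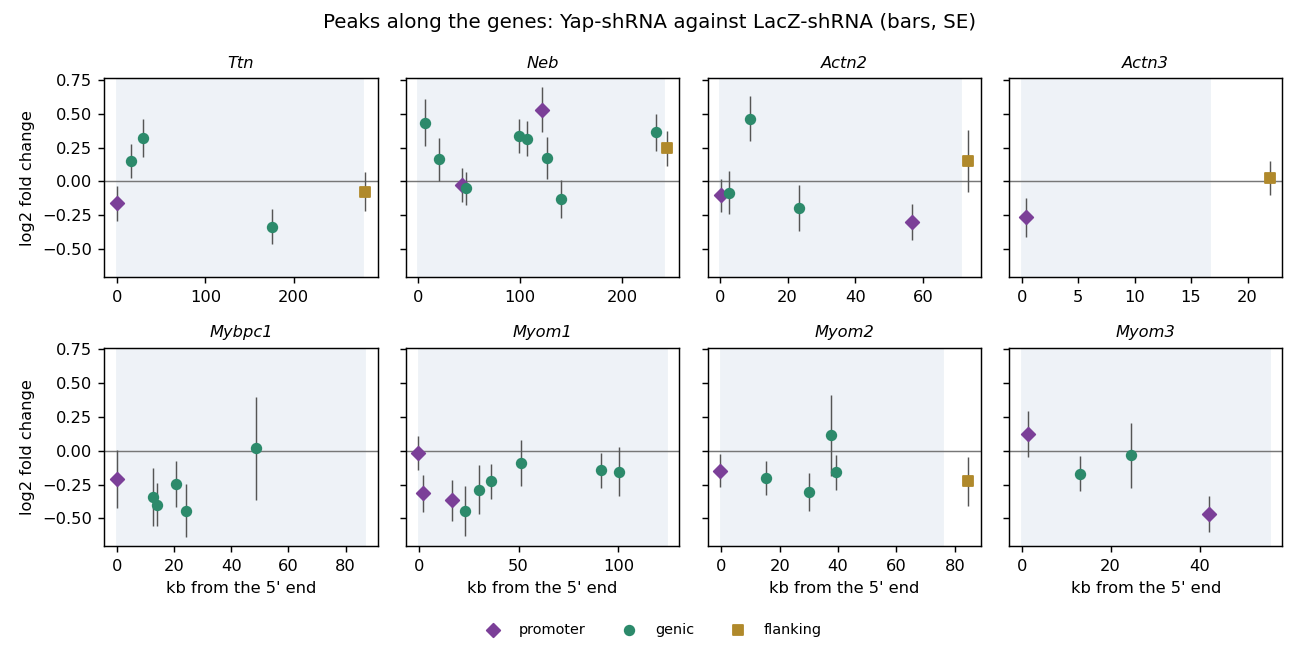
Log2 fold change (Yap-shRNA against LacZ-shRNA) with SE bars for the 49 peaks in or within 10 kb of 8 genes, by distance of the peak's centre from the gene's 5′ end in kb, with the gene shaded. Diamonds are promoter, circles genic and squares flanking peaks. In Neb 8 of 11 peaks lie above 0, in Myom1 0 of 9.

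Other genes of the sarcomere scaffold were read from the same fit, 44 in all, covering Z-disc proteins, paralogs of the members, chaperones and titin-binding proteins. Of these, 0 passed the adjusted threshold in edgeR, DESeq2 or limma voom, against 0.0223% of all windows in edgeR. At an unadjusted p under 0.05, 5 were lower and 0 higher in edgeR, against 3.01% and 1.90% of all windows. The 5 became 21 without LacZ-shRNA replicate 1, where 4.27% of all windows were lower at that p, and 1 without LacZ-shRNA replicate 3, where 5.39% were. The fold change was under 0 for 33 of 44, with a median of −0.14. Tcap, which caps titin at the Z-disc, held 92.8, 158 and 147 CPM in the controls and 101, 91.8 and 91.6 CPM with Yap-shRNA. LacZ-shRNA replicate 1 again lay among the Yap-shRNA samples. Its log2 fold change was −0.48 (SE 0.15, edgeR unadjusted p = 0.00311, adjusted p = 0.946).

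Mybph, a relative of myosin-binding protein C, was at −0.44 (SE 0.15) with no overlap between the groups, and Lmod2, which nucleates actin filaments, was at −0.39 (SE 0.16), both with an edgeR adjusted p of 0.946. The other two of the 5 were Xirp1 and Synpo2l, named after their values were seen. Without LacZ-shRNA replicate 1, Tcap, Mybph and Synpo2l passed the threshold (smallest edgeR adjusted p 2.67e-06, against 0.424 to 1 over the other alternatives). Values above 0 included Actn1 (0.25), the non-muscle alpha-actinin, and Mybpc3 (0.27), the cardiac myosin-binding protein C, neither with an unadjusted p under 0.05 in edgeR. Among further relatives of the members, Actn4 was at 0.07, Obsl1 at 0.14, Lasp1 at 0.23, Nrap at −0.002 and Nebl at −0.18 on the log2 scale. Nebl, the cardiac relative of Neb, had 3.66 CPM per kb, within the range of windows without a peak, against 12.1 for Neb.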

How the data were processed

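The authors aligned paired-end reads to GRCm38 with BWA 0.7.17, took out duplicates (SAMtools 1.8), ran MACS 1.4.2-1 for peak calling, kept peaks found in several samples and counted reads with featureCounts 1.5.0. The deposited values are raw counts for peaks and for TSS windows, with row means of at least 10 in each table. Fragment lengths, transposase offsets and multi-mapping reads cannot be examined in such counts.

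All window identifiers matched GENCODE vM21. Windows were read as reaching 1 kb up and down from all annotated starts of a gene: in 252 of 252 windows with peaks only at other starts than the 5′ end, the window held at least 0.95 of their counts. Windows and peaks were each fitted whole, over all 6 samples, with edgeR 4.0.16 in R 4.3.3 (quasi-likelihood test, TMM factors, no covariate, Benjamini-Hochberg adjustment at 0.05), checked on simulated data. CPM are TMM-normalised, and p-values measure the spread between pooled samples. No pair of replicates agreed within sampling noise.

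Also run were DESeq2 1.42.0, limma 3.58.1 voom, the likelihood-ratio test, other scaling factors, a mean count of at least 50, an adjusted p under 0.01, a replicate block, other regions and leaving out each sample. Isoform ratios were compared by exact permutation.

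Named are the 9 members, 9 relatives, the 3 related windows and 3 member peaks with the smallest p in each direction, each member's highest peak, and the 5 windows most like the members. A related gene that this rule names is not reported here. Members and lists were chosen with earlier results of these data known.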

Additional observations from a re-analysis of the deposited data

How the results depend on the processing

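With single samples left out, windows called over all genes ranged from 4 to 157, called peaks from 94 to 447, called scaffold windows from 0 to 1 and called related windows from 0 to 3. Over the same fits the scaffold peaks with an unadjusted p under 0.05 ranged from 7 to 18, the log2 fold change of Ttn from −0.091 to 0.23, of Myom3 from −0.13 to 0.17, of Mybpc2 from −0.42 to −0.11 and of the Myom1 5′ peak from −0.086 to 0.15. The log2 ratio difference of Mybpc2 to Mybpc1 ran from −0.034 to 0.083 and of Actn3 to Actn2 from −0.031 to 0.18, and 0 to 2 genes changed place in the order of levels. The likelihood-ratio test called 33 windows and 378 peaks, DESeq2 20 and 118, and limma voom 23 windows. A mean count of at least 50 left 136 called peaks, and an adjusted p under 0.01 left 103. DESeq2 gave 10 scaffold peaks with an unadjusted p under 0.05 (20.4%, against 5.22% of all peaks), a result chosen after the data were seen.

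Scaling by library size alone moved the median of all peaks from 0.00 to 0.14, gave 10 scaffold peaks with an unadjusted p under 0.05 (20.4%, against 13.3% of all peaks), 9 of them higher, and 1 called (the Neb peak at 0.66), and a scaffold peak median of 0.012. It also turned the 5′ promoter peak of Actn2 to 0.039, the 5′ peak of Myom1 to 0.13, the broad 3′ peak of Ttn to 0.071 and the Myom3 window to 0.069. Myom3, at −0.001 with all samples, was 0.023 with limma voom and 0.0022 with upper-quartile factors. Summed promoter peaks in place of windows gave −0.16 for Ttn, −0.26 for Myom3 (edgeR unadjusted p = 0.049, adjusted p = 0.558), a ratio difference of −0.072 for Actn3 to Actn2 and of 0.11 for Myom2 to Myom3, and 6 genes changed place when levels were taken from the highest peak. The ratio of Mybpc2 to Mybpc1 could not be had from promoter peaks, since Mybpc2 has none.

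Deviations of same-numbered samples had correlations from −0.12 to 0.19 in windows and from −0.14 to 0.02 in peaks, which gives no sign that equal numbers mark a pair. The vectors went to opposite limbs, so the groups may share animals, but the labels tie no number to an animal. With a replicate block, 13 windows and 207 peaks were called, 0 of them scaffold features, the scaffold window median was −0.19, the Myom3 window 0.0090 and the Myom1 5′ peak 0.0081. The cause of these shifts was not tested. Of the 9 scaffold windows, 7 kept their direction under all alternatives, and 13 of 16 named peaks did. The second promoter peak of Actn2 is not among these 16.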
